A study of Mus musculus with 11 samples.

Results

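Caveolins and cavins are the structural proteins of caveolae, the small flask-shaped pits of the plasma membrane. The 6 genes examined were Cav1, Cav2 and Cav3, which encode the caveolins, and Ptrf, Sdpr and Prkcdbp, which encode cavins and are named Cavin1, Cavin2 and Cavin3 in the current RefSeq gene table. They were chosen by name, as all non-control probes whose gene name in the scanner files was one of these 6 symbols. This gave 8 probes on 17 spots, among 55681 probes and 36413 names on the array, with 2 probes each for Cav2 and Ptrf and 1 each for the others.

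RNA of the descending aorta of 20-month-old male C57BL/6 mice was hybridized to 1-color Agilent arrays, 1 mouse per array. The 5 old nitrate treated mice had received 1 g/L NaNO3 in the drinking water for 8 weeks, and the 6 old control mice carry the agent label control. The labels of the controls describe them as a reanalysis of earlier samples and give no control salt, and the treatment text attached to their records is the one written for nitrate, so that their group was taken from their titles, which name no nitrate, with the agent label control beside them. By contrast, the study's methods give sodium chloride at the same concentration as the control treatment. All mice were of 1 strain, 1 sex and 1 age, so the comparison covers no young mice and no females, and the vessel was taken whole after flushing and removal of the surrounding fat.

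Caveolins insert into the inner leaflet of the membrane as a hairpin and bind cholesterol, and cavins assemble around them as a coat, so that a caveola needs both families. Cav1 and Ptrf are required for caveolae outside striated muscle, Cav2 forms hetero-oligomers with Cav1, and Cav3 is the caveolin of muscle. Caveolae are abundant in endothelial and smooth muscle cells of the vessel wall and in the adipocytes around it. Caveolin-1 binds the endothelial nitric oxide synthase and restrains it, and the comparison asks whether long nitrate supply was accompanied by different transcript levels of the coat.

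Cav2 and Ptrf could each be read at 2 places, and their probes are shown because agreement between the probes of a gene bears on how far each value can be read. Each probe is a 60-base oligonucleotide, printed 5′ to 3′ as the scanner files give it, with coordinates on the mouse build mm9. The Cav2 probe printed on 10 spots lies at chr6:17238393-17238452 on the plus strand, and the Cav2 probe with 1 spot at chr6:17237331-17237390 on the same strand, 1062 bases away. On the minus strand of chromosome 11, the downstream Ptrf probe lies at chr11:100818129-100818188 and the upstream one at chr11:100831717-100831776, 13588 bases apart. Which exon or untranslated part each probe matches was not analysed here.
Cav2, 10 spots: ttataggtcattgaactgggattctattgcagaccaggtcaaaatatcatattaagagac
Cav2, 1 spot: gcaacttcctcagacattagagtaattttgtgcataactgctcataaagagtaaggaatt
Ptrf, downstream: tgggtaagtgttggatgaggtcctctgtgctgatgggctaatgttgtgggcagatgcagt
Ptrf, upstream: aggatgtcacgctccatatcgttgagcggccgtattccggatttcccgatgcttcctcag

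Levels are quantile normalized log2 signals, so a difference of 1 is a doubling, and they are compared between mice for the same probe and not between probes. A probe was called when limma gave an unadjusted P value under 0.05 together with a fold change above 1.2, the thresholds used in the study. Of the 23630 detected probes, 2127 were called (9.0%), 982 of them higher in nitrate treated mice (4.16%) and 1145 lower (4.85%), and 3 had an adjusted P value under 0.05 (0.0127%). The arrays correlated with each other at 0.982 to 0.995 across the detected probes, with the lowest mean over its pairs, 0.985, for control 1. Smooth muscle markers and endothelial markers were all detected, 20 of 20 in each list, as were 20 of 20 adipocyte and 20 of 20 fibroblast markers. Of the striated muscle markers 14 of 20 were detected. Column 3 of the slides held every control array and none from nitrate treated mice, which means that the effect of column and of treatment cannot be told apart.

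None of the caveolin and cavin probes passed the call rule. All 8 were detected on all 11 arrays, and 0 of 8 had an unadjusted limma P value under 0.05, against 14.4% of all detected probes, and 0 of 8 were called, against 9.0%. By the exact permutation test over all 462 divisions of the mice, which cannot give a P value below 0.00216, 0 of 8 were under 0.05, against 14.7% of detected probes. In no probe did the groups separate, as they did in 2.75% of detected probes. The difference was above 0 for 6 probes and below 0 for 2. The median of the 8 differences was 0.04 on the log2 scale, and over all detected probes it was 0.01. In RNA of a whole vessel, fewer cells of a type and less RNA per cell cannot be told apart, so each value describes the wall as a mixture.

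**Figure D1:**
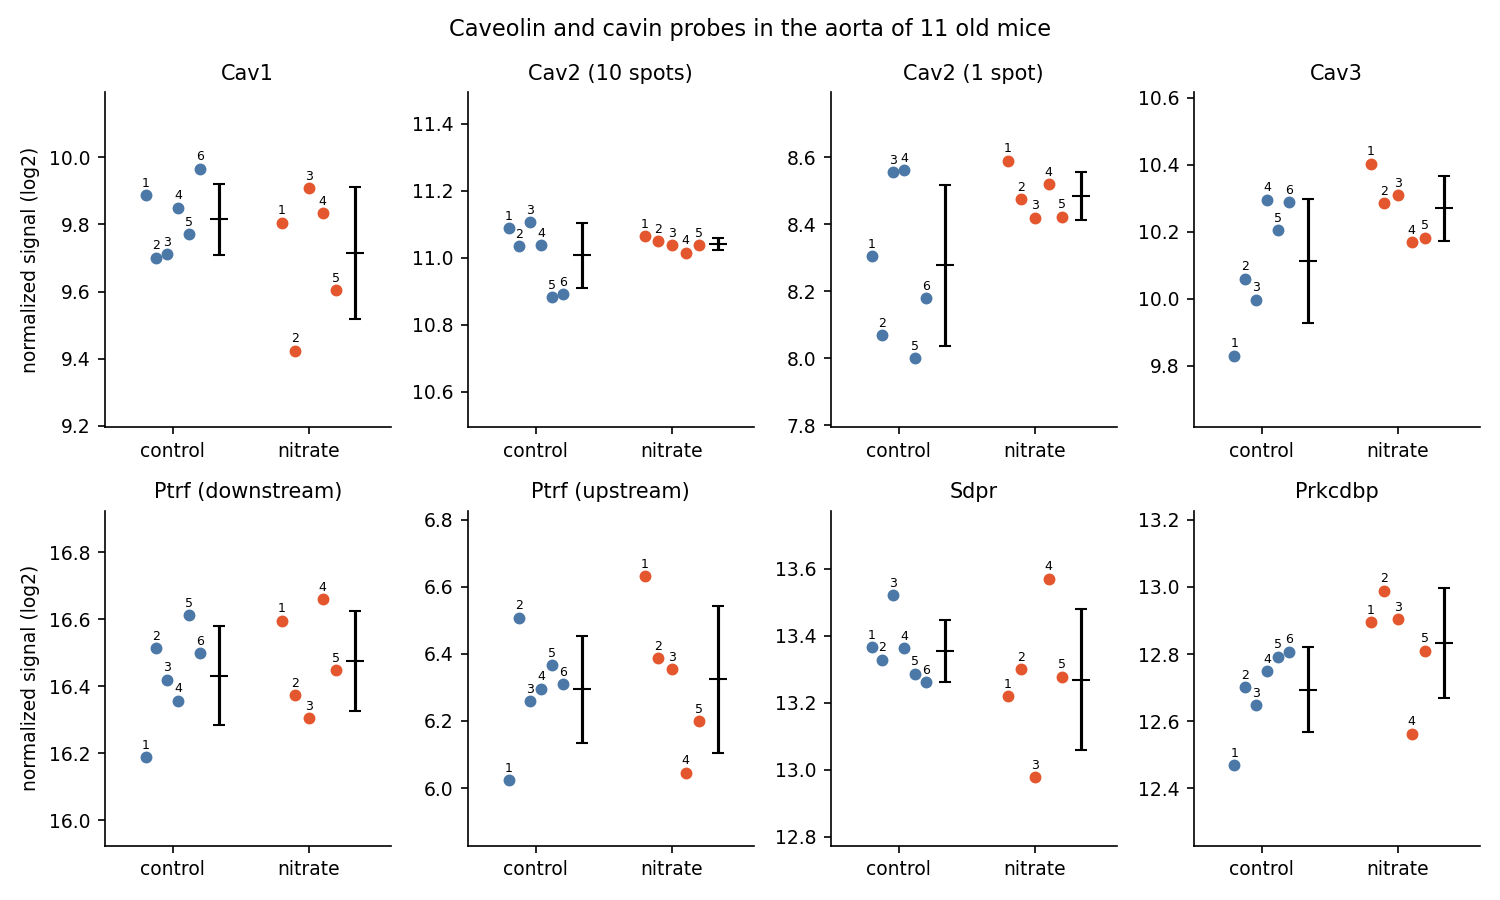
Normalized log2 signal of the 8 caveolin and cavin probes in 6 old control mice (blue) and 5 old nitrate treated mice (orange), with replicate numbers beside the points and bars for the mean ± SD. Every vertical axis spans 1 log2 unit, and the groups overlap in all 8 panels.

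Cav1 encodes the caveolin without which endothelial cells, smooth muscle cells and adipocytes have no caveolae. Its probe, at chr6:17289414-17289473 on the plus strand, gave 9.81, 9.42, 9.91, 9.83 and 9.60 in nitrate mice 1 to 5. Controls ranged from 9.70 to 9.97 with a median of 9.81. Nitrate 2 and nitrate 5 lay below every control, and the other 3 nitrate treated mice lay within the control range. The mean was 9.71 ± 0.20 (SD, n = 5) with nitrate and 9.81 ± 0.11 (SD, n = 6) in controls. The difference was -0.10 ± 0.09 (SE; 95% interval -0.31 to 0.10), or 0.933-fold, with exact permutation P = 0.320 and limma adjusted P = 0.654. Without nitrate 2, the lowest mouse, the difference was -0.03.

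Cav2 encodes the partner that joins Cav1 in mixed oligomers and depends on it to leave the Golgi. By its 10-spot probe, nitrate mice 1 to 5 gave 11.06, 11.05, 11.04, 11.01 and 11.04. Controls ranged from 10.88 to 11.11 with a median of 11.03. The nitrate treated mice lay close together inside the control range, with an SD of 0.02 (n = 5) against 0.10 (n = 6) among controls. Within 1 array the single spots of this probe, flagged ones included, had an SD of 0.03 to 0.06, with a median of 0.05. The value of a mouse is the mean of its unflagged spots, so this SD is not the error of that value. The difference was 0.03 ± 0.06 (SE; 95% interval -0.10 to 0.17), with exact permutation P = 0.439 and limma adjusted P = 0.846. For this probe a change as large as the 1.2-fold call limit lay outside the interval in both directions.

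By the 1-spot probe of Cav2, nitrate mice 1 to 5 gave 8.59, 8.48, 8.42, 8.52 and 8.42. Controls ranged from 8.00 to 8.56 with a median of 8.24. All 5 nitrate values lay above the control median, and 1 of them, nitrate 1, lay above every control. Means were 8.49 ± 0.07 (SD, n = 5) and 8.28 ± 0.24 (SD, n = 6). The difference was 0.21 ± 0.11 (SE; 95% interval -0.03 to 0.44), or 1.15-fold, with exact permutation P = 0.106 and limma adjusted P = 0.406. It was the largest difference among the 8 probes, and it depended on single control mice. Without control 4 it was 0.26 and passed the call rule, with limma adjusted P = 0.359, and without control 3 it was also 0.26 but just under the fold limit. Over all alternatives it ran from 0.14 with normexp background correction and an offset of 50 to 0.26, with 0.15 without control 5 and 0.17 without control 2. Without control 4 the 10-spot probe of the same gene gave 0.04. Within groups the 2 Cav2 probes had a Pearson correlation of 0.66 over the 11 arrays, which share slides and RNA.

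Cav3 encodes the muscle caveolin, present in cardiac and skeletal muscle and in part of the arterial smooth muscle. Its probe, at chr6:112422739-112422798 on the plus strand, gave 10.40, 10.29, 10.31, 10.17 and 10.18 in nitrate mice 1 to 5. Controls ranged from 9.83 to 10.30 with a median of 10.13. Nitrate 1 and nitrate 3 lay above every control, and all 5 nitrate treated mice lay above the 3 lowest controls. Means were 10.27 ± 0.10 (SD, n = 5) and 10.11 ± 0.18 (SD, n = 6). The difference was 0.16 ± 0.09 (SE; 95% interval -0.05 to 0.36), or 1.12-fold, with exact permutation P = 0.136 and limma adjusted P = 0.463. Without control 1, whose value was the lowest, it was 0.10.

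Cav3, as the muscle caveolin, was set beside striated muscle markers on the same arrays. The mean of the detected striated muscle markers, relative to all mice, was 2.49 in nitrate 4 and 2.18 in control 1, and between -1.26 and 0.69 in the other 9 mice. Nitrate 4 and control 1 had the lowest Cav3 values of their groups, 10.17 and 9.83. Control 1 also had the lowest mean of the smooth muscle markers, -0.32 relative to all mice. The part of either muscle in the Cav3 signal was not tested. Murc, the muscle cavin, was found above background on 2 nitrate and 3 control arrays and stayed outside the detection rule. Its highest signals were 6.18 in nitrate 4, 5.39 in nitrate 5 and 5.18 in control 1, the 3 mice with the highest striated muscle means.

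**Figure D2:**
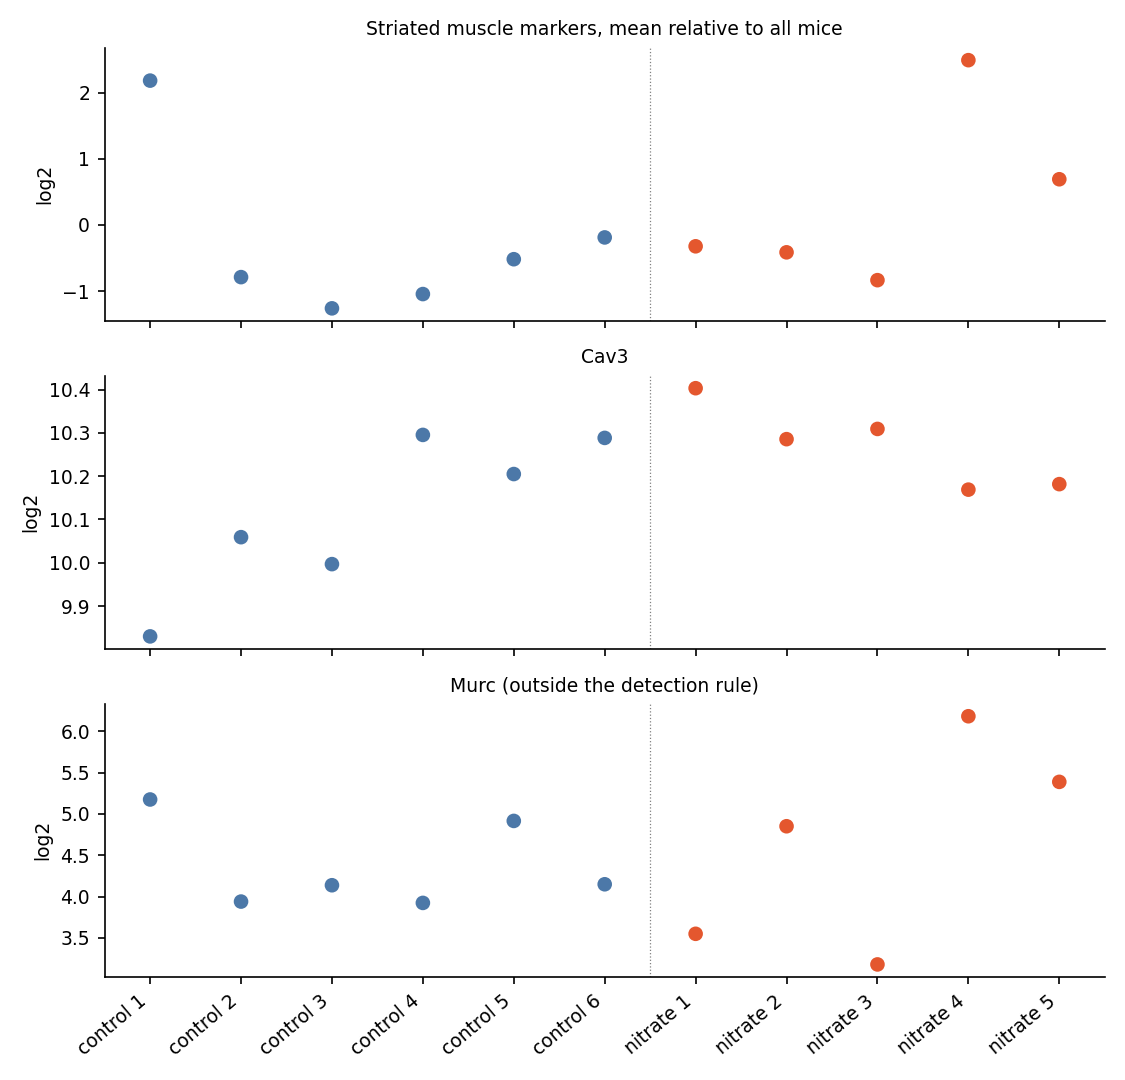
Mean of the striated muscle markers relative to all mice (top), Cav3 signal (middle) and Murc signal (bottom), all on the log2 scale, in each control (blue) and nitrate treated mouse (orange). Nitrate 4 and control 1 stand highest in the top panel, at 2.49 and 2.18, and lowest of their groups in the middle one.

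Ptrf encodes the cavin that binds caveolin oligomers and without which the coat does not form. By the downstream probe, nitrate mice 1 to 5 gave 16.60, 16.37, 16.31, 16.66 and 16.45. Controls ranged from 16.19 to 16.61 with a median of 16.46. The groups lay over each other, with 1 nitrate treated mouse above every control. The difference was 0.04 ± 0.09 (SE; 95% interval -0.16 to 0.24), or 1.03-fold, with exact permutation P = 0.632 and limma adjusted P = 0.868. This interval too stayed inside the 1.2-fold limit, 0.26 on the log2 scale, in both directions, but it passed the limit in 7 of 22 alternatives, with an upper bound of up to 0.33. No non-control spot on the arrays was saturated, this probe included.

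By the upstream Ptrf probe, nitrate mice 1 to 5 gave 6.63, 6.39, 6.36, 6.05 and 6.20. Controls ranged from 6.02 to 6.51 with a median of 6.30. Nitrate 1 was above all controls and the others were within their range. The difference was 0.03 ± 0.11 (SE; 95% interval -0.21 to 0.27), with exact permutation P = 0.786 and limma adjusted P = 0.936. Both probes of the gene gave a difference near 0, but they did not order the mice alike. Nitrate 4 had the highest value of all mice by the downstream probe and the lowest nitrate value by the upstream one, and the within-group correlation of the 2 probes was 0.30. Without control 1, which was lowest of all mice by both probes, the differences were -0.0042 and -0.02.

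Sdpr encodes the cavin that helps to curve the membrane and is needed for endothelial caveolae in some organs. Its probe, at chr1:51359651-51359710 on the plus strand, gave 13.22, 13.30, 12.98, 13.57 and 13.28 in nitrate mice 1 to 5. Controls ranged from 13.26 to 13.52 with a median of 13.35. Nitrate 1 and nitrate 3 were below every control and nitrate 4 was above every control, so that the nitrate group spread to both sides of the controls. Means were 13.27 ± 0.21 (SD, n = 5) and 13.35 ± 0.09 (SD, n = 6). The difference was -0.08 ± 0.10 (SE; 95% interval -0.29 to 0.12), or 0.943-fold, with exact permutation P = 0.377 and limma adjusted P = 0.718. It rested on single nitrate treated mice, and was -0.012 without nitrate 3 and -0.16 without nitrate 4.

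Prkcdbp encodes the cavin named for its binding to protein kinase C delta. Its probe, at chr7:112629224-112629283 on the minus strand, gave 12.90, 12.99, 12.90, 12.56 and 12.81 in nitrate mice 1 to 5. Controls ranged from 12.47 to 12.81 with a median of 12.73. In 4 of 5 nitrate treated mice the signal was above every control, and nitrate 4 was below all controls but control 1. Means were 12.83 ± 0.16 (SD, n = 5) and 12.69 ± 0.13 (SD, n = 6). The difference was 0.14 ± 0.09 (SE; 95% interval -0.06 to 0.33), with exact permutation P = 0.143 and limma adjusted P = 0.502. Without nitrate 4 it was 0.21, which had an unadjusted limma P value under 0.05 but stayed under the fold limit, and without control 1 it was 0.09.

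**Figure D3:**
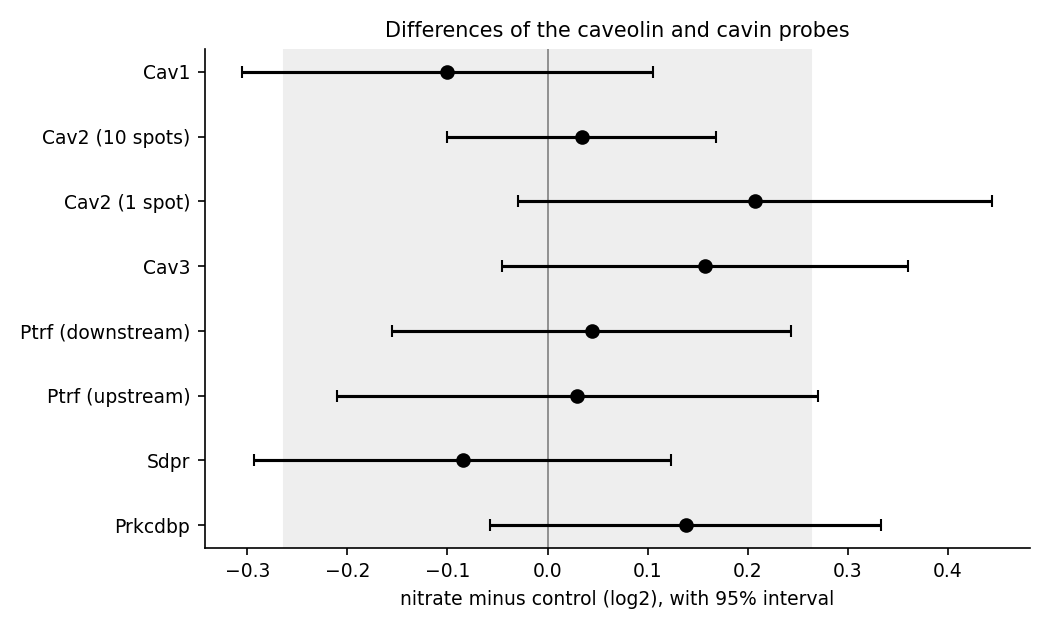
Difference between old nitrate treated and old control mice for each caveolin and cavin probe on the log2 scale (points) with its 95% interval from limma (bars, n = 5 and 6). The grey band marks changes below 1.2-fold in either direction, and all 8 intervals include 0.

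The data bound the size of any change more closely for some members than for others. Only the 10-spot Cav2 probe and the downstream Ptrf probe had intervals that stayed within the 1.2-fold limit, and for the other 6 probes the interval passed it on at least 1 side. The widest bound was 1.36-fold, for the 1-spot Cav2 probe. The median standard error of the 8 differences was 0.09, and over all detected probes it was 0.11. The median size of the difference without its sign was 0.09 for the members and 0.11 for all detected probes.

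The mice did not shift all members together. Control 1 was the lowest control by 4 of the 8 probes, those of Cav3, Ptrf and Prkcdbp. Within groups, Cav3 and Prkcdbp had a correlation of 0.77 over the 11 arrays, and Prkcdbp and the upstream Ptrf probe had one of 0.75. Cav3 and the upstream Ptrf probe had one of 0.63. Sdpr and Prkcdbp ran in opposite order, with a correlation of -0.63, and Cav1 and Ptrf by its downstream probe had one of 0.03. These are descriptions over arrays that share slides. Cav1 and Cav2 are neighbors on chromosome 6, with 50962 bases from the end of the 10-spot Cav2 probe to the start of the Cav1 probe. The within-group correlation of the 2 genes was -0.22 by the 10-spot Cav2 probe and 0.06 by the other.

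The 11 arrays lay on 3 slides that each held both groups, and the difference was also taken within each slide. Slides 1 and 3 had 2 nitrate and 2 control arrays and slide 2 had 1 nitrate and 2 control arrays. On slide 1 Cav3 differed by 0.40, Prkcdbp by 0.36 and the 1-spot Cav2 probe by 0.35. This slide held control 1, the lowest control for Cav3 and Prkcdbp. By the 1-spot Cav2 probe control 1 had 8.30 and control 2, on the same slide, 8.07. On the other slides Cav3 differed by 0.02 and 0.07, Prkcdbp by 0.13 and -0.03, and that Cav2 probe by 0.05 and 0.19. For these 3 probes the value was highest on slide 1, and Cav3 and the 1-spot Cav2 probe kept their direction on all 3. Sdpr differed by -0.09, -0.34 and 0.02, and the downstream Ptrf probe by 0.13, -0.12 and 0.04. With slide as a block, the limma adjusted P values of the 8 probes ran from 0.302 for Cav3 to 0.898 for the upstream Ptrf probe.

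**Figure D4:**
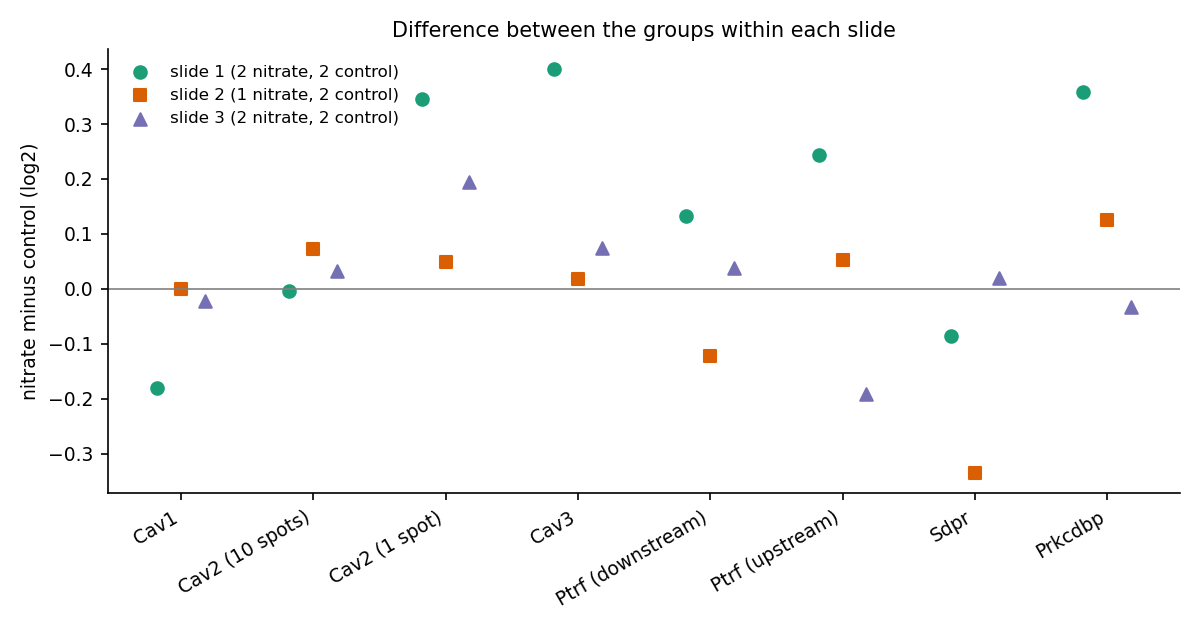
Difference between nitrate treated and control mice within each of the 3 slides (symbols) on the log2 scale, for each caveolin and cavin probe. Slide 1 gives the largest values for Cav3, Prkcdbp and the 1-spot Cav2 probe, at 0.40, 0.36 and 0.35.

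The proteins that join the coat or its neck were read from a list of 12 genes, by the brightest detected probe of each gene, and 9 were detected. On this per-gene reading 8.89% of all detected names were called. Of the 9 partners 1 was called, Ehd4, and the median difference of the list was 0.09, against 0.02 over all detected names. Without control 1 the median of the list was 0.03, with 6 differences above 0 and 3 below in place of 8 and 1. Ehd4, an EH domain ATPase of membrane necks and recycling vesicles, had 12.75, 12.90, 12.66, 12.85 and 12.82 in nitrate mice 1 to 5 and 12.18 to 12.59 in controls. Every nitrate treated mouse was above every control, with a difference of 0.31 ± 0.08 (SE), limma adjusted P = 0.185 and exact permutation P = 0.00216, the smallest possible. Its other probe differed by 0.24, under the fold limit, and without control 1 the first probe too differed by 0.24. Ehd2, the ATPase that anchors caveolae at the cell surface, differed by 0.06 by its brighter probe and 0.07 by the other (exact permutation P = 0.764 and 0.424). Pacsin2 and Pacsin3, which bend the caveolar neck, differed by 0.14 and 0.09 (exact permutation P = 0.113 and 0.227). Murc, Ehd3 and Dnm3 were outside the detection rule.

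Among 32 proteins that reside in caveolae or signal through them, 29 were detected, 4 were called higher and 1 lower, and the median difference was 0.10, beside 781 called higher and 845 lower of 18293 names and a median of 0.02 over all of them. Pdgfrb, the PDGF receptor of mural cells, was higher by 0.27 ± 0.08 (SE; exact permutation P = 0.00433) with no overlap between the groups. Hmox1, the stress-inducible heme oxygenase, was higher by 0.30 ± 0.09 (SE; exact permutation P = 0.0152). Plvap, which forms the diaphragm of endothelial caveolae, was higher by 0.30 (exact permutation P = 0.0887), and its other probe also differed by 0.30 but was not called. P2rx7, an ATP-gated channel, was higher by 0.33 (exact permutation P = 0.0693) by its brighter probe, while its other probe differed by -0.13, and the call was lost with slide as a block and in 9 of the 11 fits that left out 1 mouse. Scarb1, the HDL receptor, was lower, with a difference of -0.27 (exact permutation P = 0.0584), and passed by its other probe too, at -0.48. Nos3, the endothelial synthase held by Cav1, differed by -0.13 by its brighter probe and -0.25 by the other (exact permutation P = 0.305 and 0.0693), and neither was called. Adjusted P values of all 5 called genes were 0.197 or higher. By the brighter probe, only Hmox1 of these 5 was called without control 1, where Plvap differed by 0.32, P2rx7 by 0.30, Pdgfrb by 0.21 and Scarb1 by -0.20. Without nitrate 2 none of the 5 was called by that probe, while 1 gene other than these passed. The other probe of Scarb1 kept its call whichever mouse was left out.

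Flotillins and other raft proteins, which form membrane domains apart from caveolae, gave 12 detected genes of 14, of which 1 was called, with a median difference of 0.03. Mal, a myelin and lymphocyte raft protein, was higher by 0.30 (exact permutation P = 0.0606), and the call was lost with slide as a block and in 8 of the 11 fits that left out 1 mouse, with 0 genes of the list called without control 1 or without nitrate 2. Flot1 differed by 0.09 and Flot2 by 0.04 (exact permutation P = 0.0844 and 0.513). Stom passed by 1 of its 2 detected probes, but not by the brightest, which differed by -0.25.

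Cholesterol is the lipid that caveolins bind, and genes of its synthesis, uptake and efflux formed the last list. Of 31 genes 28 were detected, 5 were called lower and 0 higher, 23 of the 28 differences were below 0, and the median was -0.23. Of all 18293 detected names, 845 were called lower and 8312 had a difference below 0. Insig1, which holds back the sterol-sensing SREBP machinery, had 8.39, 8.16, 8.64, 8.03 and 8.08 in nitrate mice 1 to 5 and 8.37 to 10.56 in controls, a difference of -0.84 ± 0.31 (SE; exact permutation P = 0.0152). The synthesis enzymes Dhcr7 and Fdft1 differed by -0.74 and -0.50 (exact permutation P = 0.0238 and 0.0281). The thiolase Acat2 differed by -0.66 and the lysosomal cholesterol carrier Npc2 by -0.41 (exact permutation P = 0.0130 and 0.0152), and adjusted limma P values of these 5 genes were 0.245 or higher. Control 1 had the highest mean of this list, 0.80 relative to all mice, and without it the same 5 genes were called lower, with a median of -0.11 for the list, Insig1 at -0.55 and Acat2 at -0.42. Without nitrate 2 there were 4, as Acat2 lost its call, which it also did without control 3, and Fdft1 lost its call without nitrate 4. The adipocyte marker mean was likewise highest in control 1, at 0.53, with control 3 next in both lists, at 0.26 for cholesterol genes and 0.44 for adipocyte markers, and the part of that shift in the cholesterol values was not tested.

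**Figure D5:**
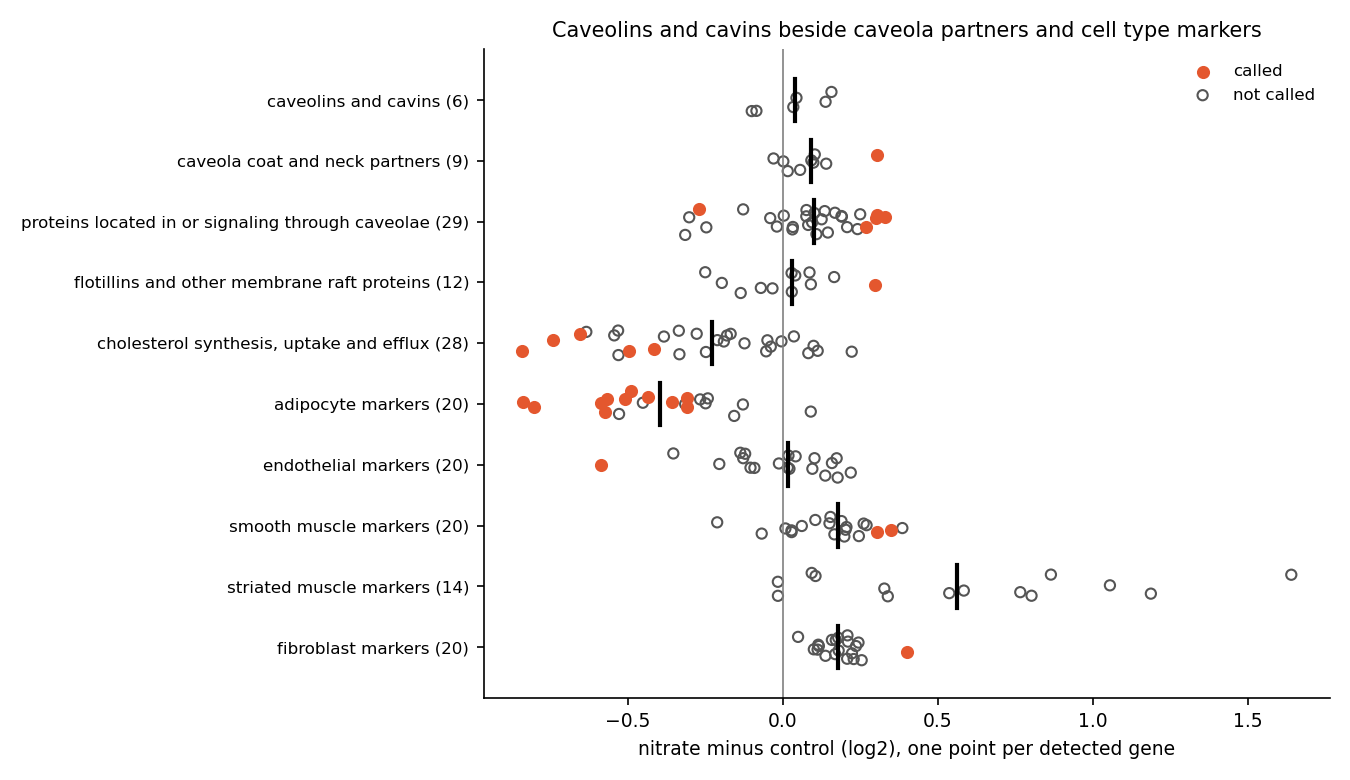
Difference between nitrate treated and control mice on the log2 scale for each detected gene by its brightest detected probe (points), with the median of each list (black bar) and the number of detected genes in brackets. Filled points passed the call rule, none of them in the caveolin and cavin list, and 11 of 20 adipocyte markers lie below 0 and pass.

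Markers of cell types were read against the 8.89% of all detected names that were called, with no test between lists. Of 20 adipocyte markers 11 were called lower and 0 higher (55%), with a median difference of -0.40. Their mean relative to all mice ran from -0.49 to 0.01 in nitrate treated mice and from -0.09 to 0.53 in controls, highest in control 1. Without control 1 there were 9 called lower, and without nitrate 2 there were 8. Without nitrate 1, the lowest mouse of this list, Cfd, Lipe, Pnpla2, Dgat2 and Slc2a4 lost their calls. Adipoq, Retn, Acvr1c, Pparg, Aqp7 and Adrb3 kept theirs whichever mouse was left out. Cidec passed by 1 of its 2 detected probes, but not by the brightest. Of 20 endothelial markers 1 was called (5%), Robo4, lower, with a median of 0.02. Kdr passed by 1 of its 2 detected probes, but not by the brightest. Of 20 smooth muscle markers 2 were called higher (10%), Lmod1 and Mustn1, with a median of 0.18, and of 20 fibroblast markers 1 was called higher (5%), Mfap4, with a median of 0.18 with all 20 differences above 0. Without control 1 the smooth muscle median was 0.09, with Lmod1 no longer called and 1 marker called lower, and Mfap4 was no longer called. Of the 14 detected striated muscle markers 0 were called, with a median of 0.56, and without control 1 there were 2 called higher and the median was 1.13. Nitrate 4 stayed in that fit, with a striated marker mean of 2.49 relative to all mice. The other nitrate treated mice had -0.32, -0.41, -0.83 and 0.69, and controls 2 to 6 ran from -1.26 to -0.19. The list without nitrate 4 was not examined. The part of these marker shifts in the caveolin and cavin values was not tested.

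Genes whose signal followed each member most closely across the 11 arrays, after removal of the group means, were found by Pearson correlation over 13735 named genes, with the brightest probe of each. For Cav1 they were D030074E01Rik at 0.92, Sart1 at 0.89 and AI314180 at 0.88. For Cav2 they were Odf3b at 0.92, Dhdpsl at 0.90 and Klhl35 at 0.89. For Cav3 they were Srpr at 0.97, Gm5780 at 0.96 and Fam129a at 0.96. For Ptrf, Fry, Thrap3 and Tcf7l1 each reached 0.93. For Sdpr they were Adra2b at 0.87, Ptplad1 at 0.86 and Flrt3 at 0.85. For Prkcdbp they were Gm8518 at 0.97, Cyb5r3 at 0.96 and Lmf2 at 0.96. No member was among the closest of another because members were left out of the search, and these highest values out of many describe only the 11 arrays.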

How the data were processed

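The authors deposited, for each of 11 arrays, the intensities and flags of every spot from Feature Extraction 10.7.1.1 (version per the file headers), with background subtracted and without normalization between arrays. They also deposited a table of log2 values, made by quantile normalization and centering of each probe on its median, and it served as an alternative. Its columns were matched to the arrays by name, and their scale, centering and direction were checked against the intensities. The column medians were 0, except -0.0088 in nitrate 4 and -0.027 in control 5.

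Processed signals below 1 were set to 1 before log2 was taken, control and outlier-flagged spots were left out (at most 186 of 59305 spots per array were flagged), spots of a probe were averaged, and arrays were quantile normalized. Detection of a probe required that most of its spots were found and exceeded background clearly (Agilent's flags) on 5 or more arrays of a group. Groups were compared with lmFit and eBayes (R 4.3.3, limma 3.58.1), with Benjamini-Hochberg adjustment over the 23630 detected probes and two-sided exact permutation tests. For lists, the detected probe with the highest mean signal stood for a gene. The fit was tested on simulated data. The number of arrays limits the precision. The 75th percentile of the processed signal was 216 to 289 in nitrate arrays and 213 to 282 in controls.

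The members and gene lists were chosen with earlier results of these data known. Named were all member probes, genes of the pathway lists called by any detected probe, and the 3 genes closest to each member by correlation. Whatever their values, 8 coat partner, signaling and raft genes were named too (Murc, Ehd2, Pacsin2, Pacsin3, Nos3, Plvap, Flot1 and Flot2). So were the coat partners outside the detection rule. Marker genes were named where called by any detected probe. All 6 symbols matched RefSeq (GRCm38.p6) by accession. Alternatives were other scalings, normexp background correction with an offset of 50, an offset of 16 alone, detection filters, flagged spots kept, another prior, slide and replicate number as blocks, and each mouse left out. P values measure the spread between single mice. A further nitrate array of the study was not analysed here.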

Additional observations from a re-analysis of the deposited data

Results flagged for a closer look

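No caveolin or cavin probe had a mouse that stood apart from its group by Dixon's criterion, the gap to the nearest mouse divided by the range of the group. Among partners and lists, 5 did. Control 1 was low for Ehd2 by its brighter probe, with a ratio of 0.83. Control 1 was also low for the mean of smooth muscle markers, with a ratio of 0.679, low for fibroblast markers, with 0.644, and high for striated muscle markers, with 0.689. Nitrate 5 was low for the mean of flotillins and other raft proteins, with a ratio of 0.792. Of 27 values examined in each group, 4 stood apart among controls and 1 among nitrate treated mice, where chance gives 1.35, about 1 in 20.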

How the results depend on the processing

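The call on the caveolin and cavin probes was the same in nearly all settings. Of 176 values under alternatives, 22 for each of 8 probes, 171 kept their direction and their call, 4 reversed and 1 was called. The reversed values belong to Ptrf, -0.0042 and -0.0015 for the downstream probe without control 1 and without nitrate 4, and -0.024 and -0.047 for the upstream probe without control 1 and without nitrate 1. Over all left-out mice the 2 probes ran from -0.0042 to 0.087 and from -0.047 to 0.099. The value that was called was the 1-spot Cav2 probe without control 4. That probe without control 3 and Prkcdbp without nitrate 4 also had an unadjusted limma P value under 0.05, but stayed under the fold limit. Leaving out each mouse gave 0 to 1 called member probes, 6 to 17 called genes against 12 over the 4 lists of coat partners, caveola signaling, raft proteins and cholesterol, and 1595 to 2423 called probes against 2127. The count over the lists was 6 without control 1 and 6 without nitrate 2, and 17 without control 6.

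Over all detected probes, 1217 were called with normexp background correction and an offset of 50, 2 choices changed together, 436 of them higher, against 982 of 2127, and 3224 with no detection filter. With the replicate number as a block, a fit that also leaves out control 6 because no nitrate mouse has its number, 2432 probes, 17 genes of the lists and 0 members were called, against 2423, 17 and 0 without control 6 and no block. The numbers were not taken to pair the mice, since deviations of mice with the same number correlated at 0.01, 0.12, -0.14, -0.13 and 0.18. The cause of these shifts was not tested. For 6 of the 8 member probes the interval of the difference still holds a change of 1.2-fold.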
